A study of Mus musculus with 111 samples.

Results

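The genes described here are 10 extracellular inhibitors and feedback targets of Wnt signalling, measured in whole lung of mice given bleomycin or saline. Frzb, Sfrp1, Sfrp2 and Wif1 encode secreted proteins that bind Wnt ligands, Dkk1, Dkk2 and Dkk3 belong to the Dickkopf family, and Axin2, Nkd1 and Sp5 are genes that beta-catenin and TCF factors switch on. The genes were chosen by name, with earlier results of these data known. Their levels came from the 19 probesets that the array annotation assigns to 1 of them and to no other gene, among 27871 probesets with a single named gene. Each gene was represented by its most variable probeset, which left 15707 genes in all.

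Male C57BL6/J mice of 7 to 9 weeks received a single intratracheal spray of bleomycin (2 U/kg), a drug whose toxicity to the lung is used to induce fibrosis in rodents, or of saline. Lungs were collected in the first week (days 1, 2 and 7) and then weekly up to day 35, which gives 7 bleomycin groups with 56 mice and 7 saline groups with 55 mice. There were 8 mice in a group, but 7 in the day 14 saline group, from which the authors had removed 1 array as an outlier. Total RNA of lung homogenate was amplified, labelled and hybridised to genome-wide Affymetrix mouse arrays, 1 mouse per array. The groups are named here by the phases that the study distinguished, inflammation (days 1 and 2), active fibrosis (days 7 and 14) and late fibrosis (days 21, 28 and 35).

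Wnt ligands act by engaging Frizzled receptors together with the co-receptors Lrp5 and Lrp6, which stabilises beta-catenin and lets it activate target genes with TCF and LEF factors. Frizzled-related proteins and Wif1 intercept the ligand outside the cell, Dkk1 and Dkk2 bind the co-receptors, and Axin2 and Nkd1 are induced by the pathway and dampen it from inside the cell. In the lung the pathway is known for its part in branching during development and in epithelial repair.

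Levels are log2 values after robust multi-array averaging (RMA), so that a difference of 1 is a 2-fold change, and a level of one probeset cannot be set against that of another. A gene was called higher or lower on a day when the limma contrast of bleomycin and saline mice had a Benjamini-Hochberg adjusted p under 0.05 over all genes. The arrays had medians from 8.61 to 8.73. Of the marker lists that check the tissue, the alveolar ones varied least over all arrays. Their means were 12.82 to 13.33 for alveolar type I cells and 12.32 to 12.88 for alveolar type II cells. Other lists varied more. The mean ran from 8.04 to 12.41 for heart muscle, 9.40 to 11.75 for smooth muscle, 5.45 to 7.41 for cartilage and 8.77 to 10.51 for mesothelial markers. For leukocyte markers it ran from 9.17 to 10.64 and for fibroblast markers from 10.11 to 11.44. Of all arrays, 3 stood apart from their own group in their correlation over all genes. In the 3rd saline mouse of day 7 the cartilage markers averaged 7.41 (5.56 to 5.84 in the other 7 mice), the fibroblast markers 10.99 (10.39 to 10.68) and the smooth muscle markers 11.33 (10.20 to 10.89). The endothelial markers of that mouse, at 11.68, were below the others (11.86 to 12.03), as were both alveolar lists. In the 3rd bleomycin mouse of day 35 the cartilage markers averaged 6.14 (5.63 to 5.83) and the fibroblast markers 11.29 (10.42 to 11.08), while its endothelial, alveolar and airway epithelial markers were below those of the other 7. In the 4th bleomycin mouse of day 21 the endothelial markers averaged 11.97 (10.90 to 11.78), the smooth muscle markers 10.03 (9.48 to 9.95) and the heart muscle markers 11.49 (9.24 to 10.79), and its leukocyte and fibroblast markers were the lowest of the group. Differences between bleomycin and saline mice that rest on these mice are given with and without them.

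All 10 genes were called on at least 1 of the 7 days, as were 78.5% of all genes. Across the 70 gene and day values of the set, 21 were higher and 12 lower in bleomycin mice, or 30% and 17.1%, beside 17.9% and 16.3% over all genes. On day 1 the set had 1 gene higher and 2 lower (all genes, 14.7% higher and 16.7% lower). On day 2 it had 1 higher (14.2%) and 0 lower by limma (13.1%), while 2 genes were lower at an unadjusted p under 0.05. For day 7 there were 3 higher (25.7%) and 4 lower (21.9%), and on day 14 there were 3 higher (21.9%) and 2 lower (19.7%). The late days had 5 higher (20.5%) and 2 lower (18.9%) on day 21, 3 higher (11.5%) and 1 lower (11.8%) on day 28, and 5 higher (16.9%) and 1 lower (12.5%) on day 35. Only 10 genes stand behind each share, and on day 35 the number higher was 3 without the 3rd bleomycin mouse. Because the genes were chosen with earlier results of these data known, the shares cannot show that the set changed more often than other genes. The median difference of the set was between -0.07 on day 1 and 0.27 on day 35, beside -0.01 and 0.02 over all genes.

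**Figure D1:**
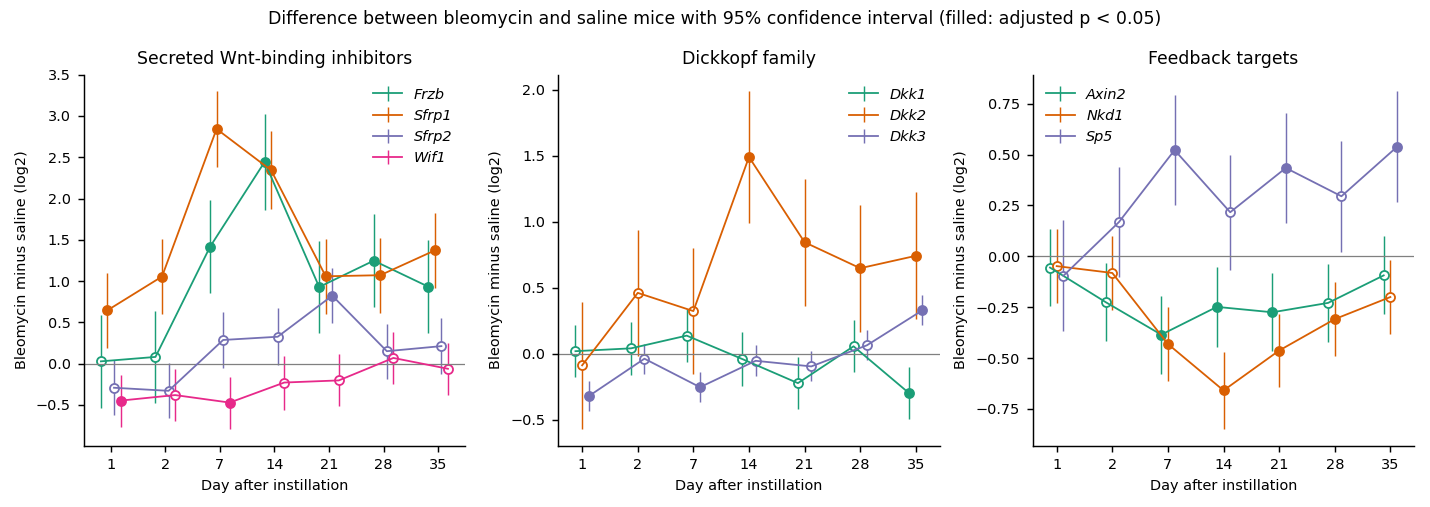
Difference between bleomycin and saline mice (log2, y axis) on each day after instillation (x axis) for the 3 roles, with 95% confidence intervals. Filled points passed the adjusted p threshold. Sfrp1 lies above 0 on all 7 days and peaks at 2.84 on day 7, Frzb and Dkk2 peak on day 14 at 2.44 and 1.49, and Nkd1 reaches its lowest value, -0.66, on day 14.

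Sfrp1, a secreted frizzled-related protein that binds Wnt ligands, was higher in bleomycin mice on all 7 days. On day 1 the bleomycin mice ranged from 5.83 to 7.60 with a median of 6.71, and the saline mice from 5.58 to 6.50 with a median of 6.10. The difference was 0.65 with an SE of 0.23 (limma adjusted p = 0.023), and the groups overlapped, with 6 of 8 bleomycin mice above every saline mouse. Averaged over its 4 probesets, the day 1 difference was 0.37 and was not called (adjusted p = 0.0951). On day 2 the levels were 6.15 to 8.09 with a median of 7.57 after bleomycin and 5.82 to 6.63 with a median of 6.30 after saline, a difference of 1.06 (adjusted p = 0.000164).

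The change was at its height in the active fibrosis phase. On day 7 the bleomycin mice ranged from 8.14 to 9.67 with a median of 9.34 and the saline mice from 5.83 to 7.33 with a median of 6.33, which is 7.17-fold (log2 2.84, SE 0.23, adjusted p = 1.22e-18). On day 14 they ranged from 8.61 to 9.65 with a median of 9.17, against 6.52 to 7.07 with a median of 6.89, which is 5.07-fold (log2 2.34, SE 0.24, adjusted p = 9.44e-14). No bleomycin mouse overlapped a saline mouse on either day.

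Sfrp1 remained higher through late fibrosis at a lower amplitude. The differences were 1.06 on day 21, 1.07 on day 28 and 1.37 on day 35 (SE 0.23, adjusted p = 9.39e-05, 0.00025 and 1.91e-06). On day 28 the lowest bleomycin mouse, at 7.53, was above the highest saline mouse, at 7.29, and on day 35 the corresponding values were 7.12 and 6.92. On day 21 the groups overlapped, with bleomycin mice from 6.44 to 8.39 and saline mice from 6.03 to 7.38. The response at days 7 and 14 exceeded that at days 1 and 2 by 1.74 (95% confidence interval 1.28 to 2.20, adjusted p = 1.5e-09). The late response was lower than that at days 7 and 14 by a log2 difference of -1.42 (95% confidence interval -1.84 to -1.01, adjusted p = 8.48e-08).

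Frzb, also called sFRP3 and first known from cartilage, was not called in the inflammation phase and was higher on each of the 5 later days. On day 1 the difference was 0.03 (95% confidence interval -0.53 to 0.59) and on day 2 it was 0.08 (-0.48 to 0.64). By day 7 the bleomycin mice ranged from 6.72 to 8.04 with a median of 7.60 and the saline mice from 5.55 to 7.23 with a median of 5.92, a difference of 1.42 (SE 0.28, adjusted p = 1.37e-05). The highest saline value on that day, 7.23, belonged to the 3rd saline mouse, which stood apart in 6 marker lists. Without it the difference was 1.58, and the part of other cell types in that level was not tested.

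Frzb was highest on day 14. The bleomycin mice ranged from 7.20 to 9.37 with a median of 8.65 and the saline mice from 5.43 to 6.34 with a median of 6.16, which is 5.44-fold (log2 2.44, SE 0.29, adjusted p = 3.27e-11). All 8 bleomycin mice were above every saline mouse.

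The later response of Frzb differed widely from mouse to mouse. On day 21 the bleomycin mice ranged from 5.84 to 7.86 with a median of 7.06, against 5.77 to 6.65 with a median of 6.05 in saline mice (difference 0.93, adjusted p = 0.00546). On day 28 they ranged from 5.64 to 8.99 with a median of 6.96, against 5.59 to 6.13 with a median of 5.81 (difference 1.25, adjusted p = 0.00054). On day 35 they ranged from 5.83 to 9.36 with a median of 6.62, against 5.73 to 6.22 with a median of 5.96 (difference 0.93, adjusted p = 0.00764). On each of these days 6 of 8 bleomycin mice were above every saline mouse and the other 2 lay within the saline range. The SD among bleomycin mice was 0.24 on day 1 and 0.18 on day 2, and it was 1.11 on day 28 and 1.12 on day 35, while the saline SD stayed between 0.15 and 0.51.

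The day 35 call of Frzb was lost in 2 of 10 alternatives, without 1 mouse and with 1 fit per day. Its SE of 0.28 came from the spread shared by all 14 groups, while the bleomycin SD on that day was 1.12. The 3rd bleomycin mouse had the highest level, 9.36, and without it the difference was 0.58 (adjusted p = 0.0908). Between phases, the response of Frzb at days 7 and 14 exceeded that at days 1 and 2 by 1.87 (95% confidence interval 1.31 to 2.44, adjusted p = 7.35e-08). The late response differed from it by -0.89 (95% confidence interval -1.41 to -0.38, adjusted p = 0.00598).

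Sfrp2, the third frizzled-related protein of the set, was called on day 21 and on no other day. On that day the bleomycin mice ranged from 9.98 to 11.42 with a median of 10.77 and the saline mice from 9.73 to 10.19 with a median of 9.92, which is 1.77-fold (log2 0.82, SE 0.17, adjusted p = 3.86e-05). The groups overlapped through 1 bleomycin mouse, and 7 of 8 were above every saline mouse. On days 1 and 2 the differences were -0.29 and -0.33 (adjusted p = 0.185 and 0.144), and on days 7 and 14 they were 0.29 and 0.33 (adjusted p = 0.157 and 0.127). Although none of these 4 values was called, the difference between the 2 phases was, at 0.62 (95% confidence interval 0.28 to 0.95, adjusted p = 0.00239).

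Wif1, a secreted protein with a Wnt-binding domain, was the one Wnt-binding inhibitor that was lower in bleomycin mice. On day 1 the bleomycin mice ranged from 5.78 to 6.96 with a median of 6.37 and the saline mice from 6.09 to 7.33 with a median of 6.79 (difference -0.45, SE 0.16, adjusted p = 0.0236). On day 7 they ranged from 5.95 to 6.43 with a median of 6.12, against 6.22 to 8.07 with a median of 6.35 (difference -0.47, SE 0.16, adjusted p = 0.0102). The groups overlapped on both days, and with arrays weighted by quality the day 1 difference was -0.35 (adjusted p = 0.0893).

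The saline mouse at 8.07 was that same mouse. Without it the day 7 difference of Wif1 was -0.27 (adjusted p = 0.125). This call was lost in 2 of 10 alternatives, of which leaving out that mouse was 1. On day 2 Wif1 differed by -0.38 (adjusted p = 0.0641). From day 14 on its differences lay between -0.23 and 0.07 and were not called, and neither contrast between phases was called.

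**Figure D2:**
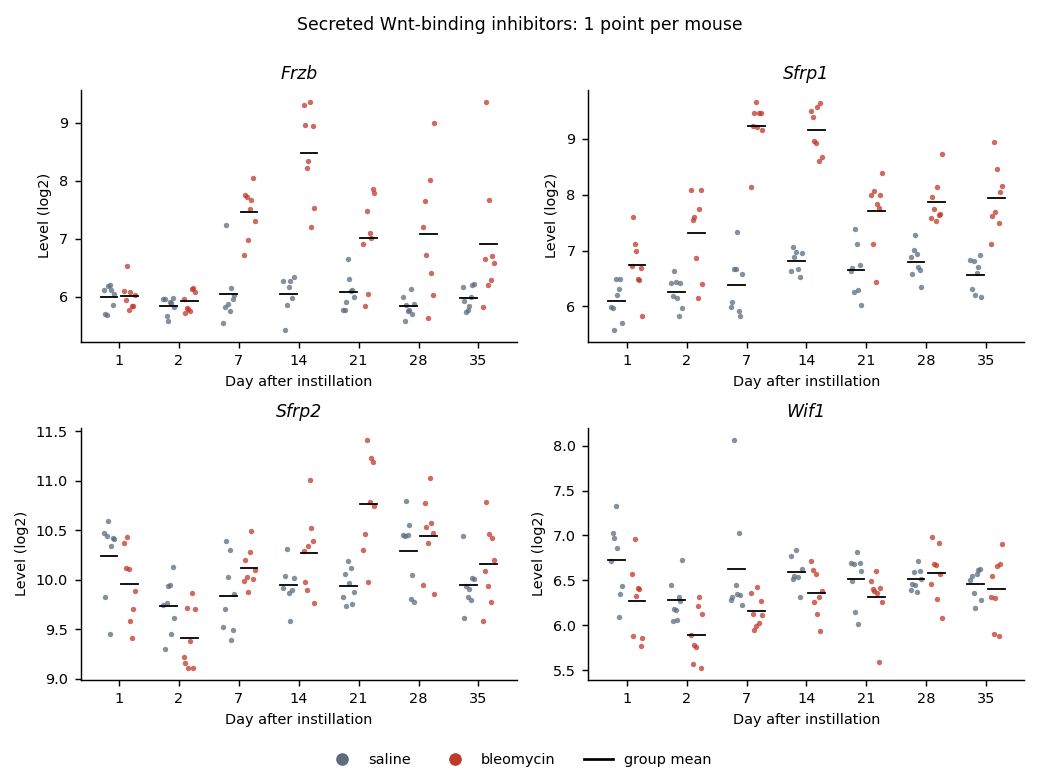
Level of the 4 secreted Wnt-binding inhibitors (log2, y axis) in every mouse by day after instillation (x axis), saline in grey and bleomycin in red, with group means as black bars. The bleomycin mice of Sfrp1 are clear of the saline mice on days 7, 14, 28 and 35, those of Frzb on day 14, and the single high saline points of day 7 are 7.23 for Frzb and 8.07 for Wif1.

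Dkk2, which binds the co-receptor Lrp6, was higher on days 14, 21, 28 and 35. On day 14 the bleomycin mice ranged from 5.91 to 7.91 with a median of 7.52 and the saline mice from 5.36 to 5.96 with a median of 5.68, which is 2.81-fold (log2 1.49, SE 0.25, adjusted p = 5.48e-07). Of the 8 bleomycin mice, 6 were above every saline mouse, and the other 2, at 5.91 and 5.92, were within the saline range. On days 1, 2 and 7 the differences were -0.09, 0.46 and 0.32 and were not called (adjusted p = 0.815, 0.156 and 0.28). On day 2, 5 of 8 bleomycin mice were above every saline mouse. The SE of 0.24 came from the spread shared by all 14 groups, while the SD on day 2 was 0.36 after bleomycin and 0.27 after saline.

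In late fibrosis the Dkk2 differences were 0.84 on day 21, 0.65 on day 28 and 0.74 on day 35 (SE 0.24, adjusted p = 0.00314, 0.0409 and 0.0138). On day 35 the bleomycin mice ranged from 4.99 to 8.12 with a median of 5.84, and the saline mice from 5.07 to 5.68 with a median of 5.36. That group spanned the saline range on both sides. Its highest value, 8.12, was that of the 3rd bleomycin mouse, and without it the difference was 0.45 (adjusted p = 0.135). The call was also lost with 1 fit per day. The response of Dkk2 at days 7 and 14 exceeded that at days 1 and 2 by 0.72 (95% confidence interval 0.24 to 1.20, adjusted p = 0.0142), and the late response differed from it by -0.16 (-0.60 to 0.28), which was not called.

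Dkk3, a divergent Dickkopf protein whose link to Wnt signalling is less settled, was lower on days 1 and 7 and higher on day 35. On days 2, 14, 21 and 28 its differences were -0.04, -0.06, -0.10 and 0.06 and were not called (adjusted p = 0.668, 0.486, 0.174 and 0.476). On day 1 the bleomycin mice ranged from 11.19 to 11.55 with a median of 11.37 and the saline mice from 11.54 to 11.78 with a median of 11.66 (difference -0.32, SE 0.06, adjusted p = 7.75e-06). On day 7 they ranged from 11.24 to 11.49 with a median of 11.38, against 11.51 to 11.89 with a median of 11.59 (difference -0.26, adjusted p = 9.86e-05). On day 35 they ranged from 11.67 to 12.01 with a median of 11.78, against 11.38 to 11.58 with a median of 11.44 (difference 0.33, adjusted p = 4.57e-06).

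The groups of Dkk3 did not overlap on days 7 and 35, in opposite directions. The change of the late response from that of days 7 and 14 was 0.25 (95% confidence interval 0.15 to 0.36, adjusted p = 1e-04). The saline mice themselves had their lowest group mean, 11.46, on day 35 and their highest, 11.73, on day 14. The second probeset of Dkk3 gave -0.05 on day 1 and -0.04 on day 7 (adjusted p over probesets = 0.604 and 0.579). On day 35 it gave 0.41 (adjusted p over probesets = 2.58e-07). The decrease on days 1 and 7 was thus seen with 1 of 2 probesets and the increase on day 35 with both.

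Dkk1, the classical antagonist of Lrp5 and Lrp6, was called on day 35, when it was lower. The bleomycin mice ranged from 4.78 to 5.51 with a median of 5.07 and the saline mice from 5.17 to 5.59 with a median of 5.46 (difference -0.30, SE 0.10, adjusted p = 0.0157). The groups overlapped, with 5 of 8 bleomycin mice below every saline mouse. On the other 6 days its differences lay between -0.22 and 0.14. The saline mice had their highest group mean of Dkk1, 5.42, on day 35 and their lowest, 5.07, on day 28. Dkk1, Dkk2, Wif1 and Frzb were among the 30% of genes with the lowest mean level, which 1 alternative left out.

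**Figure D3:**
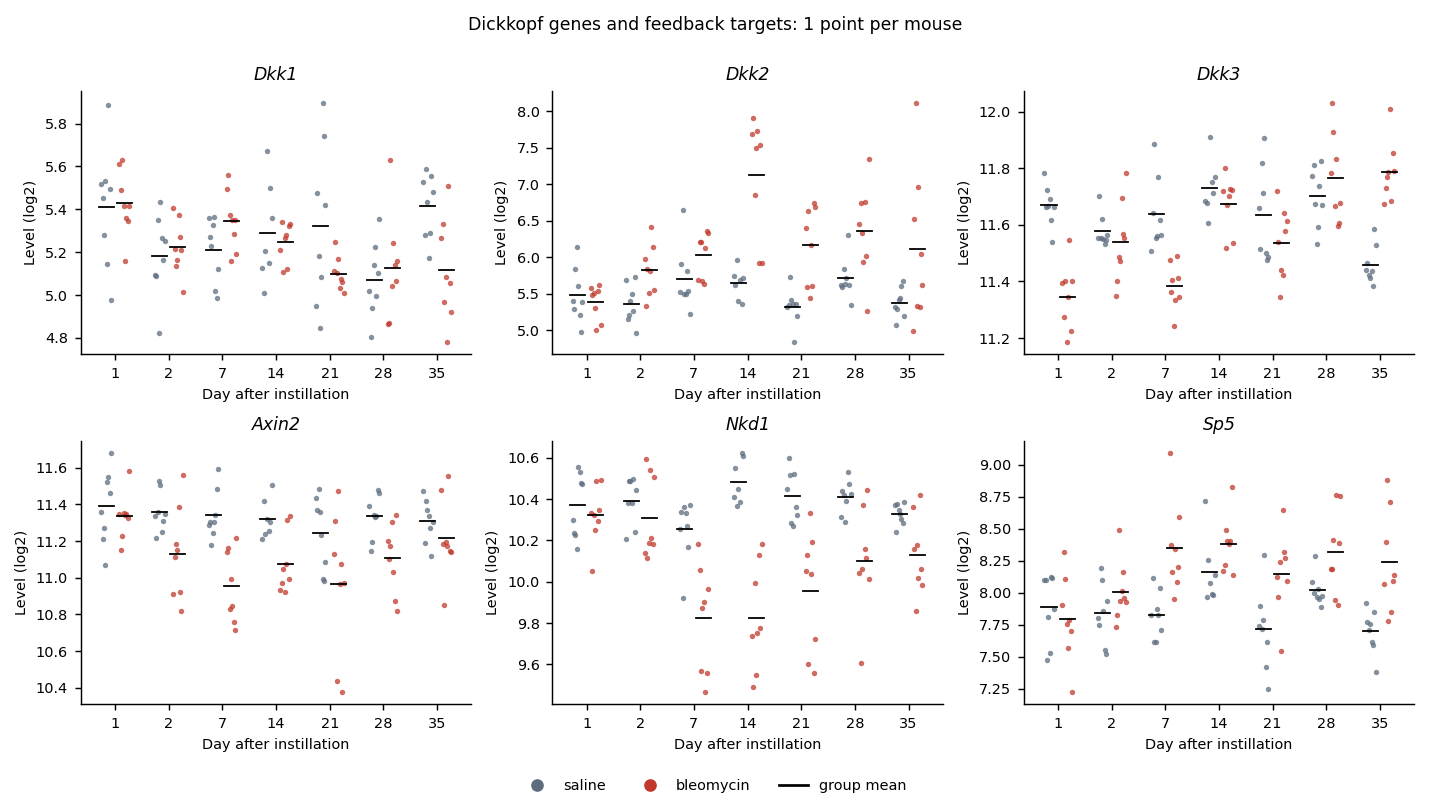
Level of the Dickkopf genes and the feedback targets (log2, y axis) in every mouse by day after instillation (x axis), saline in grey and bleomycin in red, with group means as black bars. Dkk3 separates the groups on day 7 (bleomycin lower) and day 35 (bleomycin higher), Nkd1 on day 14 (bleomycin lower), and Dkk2 on day 35 runs from 4.99 to 8.12 among bleomycin mice.

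The 3 feedback targets did not move in one direction. Axin2, a scaffold of the beta-catenin destruction complex, and Nkd1, which binds Dishevelled and restrains the pathway, were lower after bleomycin, and Sp5, a transcription factor that the pathway induces, was higher. TCF and LEF factors act on such targets through short core motifs. ATCAAAG and TTCAAAG were searched on both strands in the 250 bases before the RefSeq start site (GRCm38.p6) of the 8 genes that had one, and the windows with a match are shown, in the direction of the gene, with the match in capitals. The motifs differ in their first letter alone, so that 1 site cannot match both, and 7.48% of 32851 promoter windows of this length held either of them.
Sp5 (chr2:70474673-70474922, plus strand): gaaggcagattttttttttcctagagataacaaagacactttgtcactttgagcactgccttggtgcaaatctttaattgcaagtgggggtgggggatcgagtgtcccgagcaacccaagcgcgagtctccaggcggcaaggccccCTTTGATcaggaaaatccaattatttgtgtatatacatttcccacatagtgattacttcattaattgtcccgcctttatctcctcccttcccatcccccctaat
Dkk1 (chr19:30549497-30549746, minus strand): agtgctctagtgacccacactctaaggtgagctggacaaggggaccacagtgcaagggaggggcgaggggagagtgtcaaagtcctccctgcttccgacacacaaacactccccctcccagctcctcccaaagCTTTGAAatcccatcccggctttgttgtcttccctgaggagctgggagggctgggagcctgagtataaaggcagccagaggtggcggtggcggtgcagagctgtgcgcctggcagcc
Sp5 held 1 match, ATCAAAG on the reverse strand, beginning at position -104 from the start site, and Dkk1 held 1 match to TTCAAAG on the reverse strand at position -117. The windows of Sp5, Dkk1, Frzb and Wif1 ended at the outer end of the annotated gene, and the letters of neither motif were found in those of Frzb and Wif1. For Dkk2, Sfrp2, Axin2 and Nkd1 the start site of the table lay 26, 571, 2521 and 6291 bases inside the annotated gene. Their windows held no match, and the sequence before the outer ends of these genes was not searched. Whether a TCF factor binds any of these letters was not measured.

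Nkd1 was lower on days 7, 14, 21 and 28. By day 7 the bleomycin mice ranged from 9.46 to 10.18 with a median of 9.89 and the saline mice from 9.92 to 10.37 with a median of 10.30 (difference -0.43, SE 0.09, adjusted p = 4.03e-05). On day 14 they ranged from 9.49 to 10.18 with a median of 9.76, against 10.37 to 10.62 with a median of 10.45, which is 1.58-fold lower (log2 -0.66, SE 0.09, adjusted p = 9.02e-09). The groups overlapped on day 7 and were separate on day 14.

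In late fibrosis the Nkd1 differences were -0.46 on day 21 and -0.31 on day 28 (adjusted p = 2.09e-05 and 0.00858), and on day 35 the difference was -0.20 (adjusted p = 0.0903). On days 1 and 2 it was -0.05 and -0.08 and was not called. The response at days 7 and 14 was lower than that at days 1 and 2 by a log2 difference of -0.48 (95% confidence interval -0.66 to -0.30, adjusted p = 1.44e-05). The late response exceeded that at days 7 and 14 by 0.22 (0.05 to 0.39, adjusted p = 0.0402), a call that depended on the probeset. It was 0.03 with the brightest probeset (adjusted p = 0.825) and 0.12 in the mean of all probesets (adjusted p = 0.237), and it was also lost with 1 fit per comparison (0.22, adjusted p = 0.0527) and without the 4th bleomycin mouse of day 21 (0.20, adjusted p = 0.059).

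Axin2 was lower on days 7, 14 and 21 by a smaller amount. On day 7 the bleomycin mice ranged from 10.72 to 11.22 with a median of 10.92 and the saline mice from 11.18 to 11.59 with a median of 11.30, which is 1.31-fold lower (log2 -0.39, SE 0.10, adjusted p = 0.000471). The groups overlapped through 1 bleomycin mouse. On day 14 the difference was -0.25 (adjusted p = 0.0368) and on day 21 it was -0.28 (adjusted p = 0.0167), with 6 and 4 of 8 bleomycin mice below every saline mouse. Fitted within day 21 alone, that difference had an adjusted p = 0.15. On days 2 and 28 Axin2 differed by -0.23 on each day without passing the threshold (adjusted p = 0.0709 and 0.0727). Neither contrast between phases was called.

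Sp5 was higher on days 7, 21 and 35. On day 7 the bleomycin mice ranged from 7.95 to 9.09 with a median of 8.27 and the saline mice from 7.61 to 8.11 with a median of 7.83, which is 1.44-fold (log2 0.52, SE 0.14, adjusted p = 0.000869). On day 35 they ranged from 7.78 to 8.88 with a median of 8.11, against 7.38 to 7.92 with a median of 7.73 (difference 0.54, adjusted p = 0.00143), and on day 21 the difference was 0.43 (adjusted p = 0.00751). The groups overlapped on all 3 days. On days 14 and 28 the differences were 0.22 and 0.30 (adjusted p = 0.224 and 0.11). The saline mice had their lowest group mean, 7.70, on day 35 and their highest, 8.16, on day 14. The bleomycin mean on day 14 was 8.38. The response at days 7 and 14 exceeded that at days 1 and 2 by 0.33 (95% confidence interval 0.06 to 0.61, adjusted p = 0.0498), just within the threshold but not without the 3rd saline mouse of day 7 (0.32, adjusted p = 0.064).

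Counted over the set, the response at days 7 and 14 differed from that at days 1 and 2 upward in 5 genes (Frzb, Sfrp1, Sfrp2, Dkk2 and Sp5) and downward in 1 (Nkd1), beside 20.4% and 15.8% of all genes. The late response differed from that at days 7 and 14 upward in 2 genes (Dkk3 and Nkd1) and downward in 2 (Frzb and Sfrp1), beside 11.9% and 14.9%. Among saline mice alone, 5 of the 10 genes differed between days by an F test (Sfrp1, Sfrp2, Dkk1, Dkk3 and Sp5), beside 54.1% of all genes. The saline means of Sfrp1 lay between 6.09 on day 1 and 6.82 on day 14, and those of Sfrp2 between 9.74 on day 2 and 10.29 on day 28.

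The genes with several probesets were Frzb, Sfrp1, Dkk3, Axin2 and Nkd1. Their probesets differed in the size of the change, in calls and, on some days, in sign. All 4 probesets of Sfrp1 were called higher on days 2, 7, 14, 21, 28 and 35, with differences of 1.92 to 2.84 on day 7, and on day 1 they lay between -0.01 and 0.65. The second probeset of Frzb gave 0.64 on day 7 and 1.39 on day 14 (adjusted p over probesets = 0.00132 and 6.25e-10), and 0.23 to 0.40 on days 21, 28 and 35 without passing the threshold. The second probeset of Axin2 was called on day 7 alone, at -0.23 (adjusted p over probesets = 0.0045). All 4 probesets of Nkd1 were called lower on day 14, with differences from -0.27 to -0.66. The day 7 values of Nkd1 ran from -0.03 to -0.43, and 2 of the 4 probesets were called. On day 2 the probeset of Nkd1 used here gave -0.08 and the others 0.08 to 0.21, without a call. The second probeset of Dkk3 was called higher on day 28, at 0.23 (adjusted p over probesets = 0.00417), where the probeset used gave 0.06. On day 14 these 2 probesets gave 0.13 and -0.06.

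**Figure D4:**
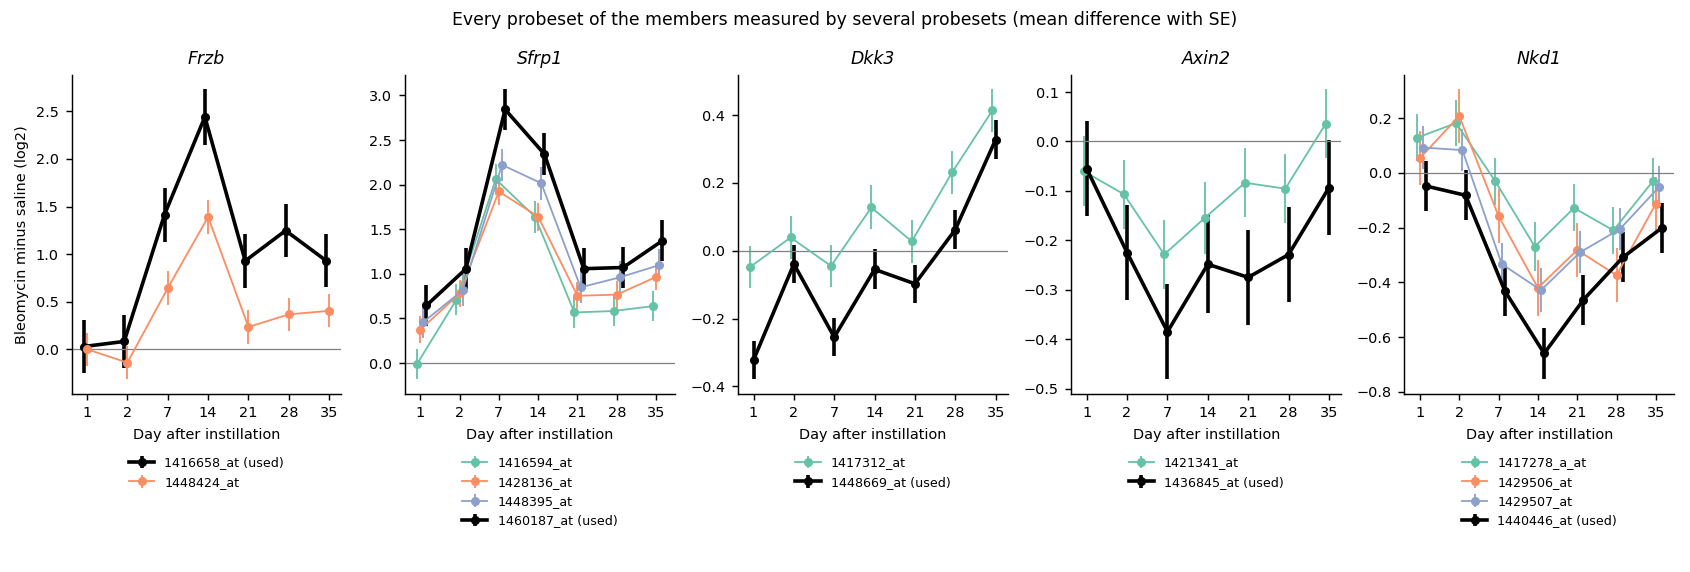
Difference between bleomycin and saline mice (log2 with SE, y axis) by day after instillation (x axis) for every probeset of the 5 genes measured by several, with the probeset used elsewhere in black. The probesets of Sfrp1 run together from 1.92 to 2.84 on day 7, whereas those of Dkk3 part on day 1 (-0.32 and -0.05) and meet again on day 35 (0.33 and 0.41).

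Genes of the rest of the pathway were taken from lists of known members, and their calls are given as shares of all gene and day values of a list, to be read beside 17.9% higher and 16.3% lower over all genes. Of 23 other Wnt inhibitors measured, 1 to 3 were higher and 1 to 8 lower on each day, with 12 higher and 32 lower among 161 gene and day values (7.45% and 19.9%). Their largest changes were in Tpbg, a membrane inhibitor of Wnt signalling (0.77 on day 7, adjusted p = 1.73e-08), and in Cxxc4, an inhibitor that binds Dishevelled (-0.81 on day 14, adjusted p = 1.13e-05). Of 18 other beta-catenin and TCF target genes, 4 to 8 were higher and 1 to 6 lower on each day (31% and 18.3%). Fosl1, an AP-1 transcription factor, was 2.32 higher on day 7 (adjusted p = 2.47e-09), and Bambi, a decoy receptor of the TGF-beta family, differed by -0.87 on the same day (adjusted p = 4.25e-10).

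Among 17 Wnt ligands, 1 to 4 were higher and 1 to 3 lower on each day (16% and 8.4%). Wnt10a rose by 1.00 on day 7 (adjusted p = 2.08e-10), and Wnt2, a ligand known from lung mesenchyme, fell by 0.91 on day 35 (adjusted p = 1.06e-07). Of 14 receptors and co-receptors, 1 to 3 were higher and 0 to 4 lower (13.3% and 11.2%), with Ror2 at 0.63 on day 14 (adjusted p = 0.00265) and Fzd4 at -0.55 on day 7 (adjusted p = 0.00491). The day without a lower receptor by limma was day 35, when 2 were lower at an unadjusted p under 0.05. Of 6 R-spondins and their receptors, which enhance Wnt signalling, 0 were higher by limma on any day (at most 1 at an unadjusted p under 0.05) and 1 to 3 were lower (21.4%), the largest being Lgr6 at -1.21 on day 1 (adjusted p = 0.00255). Of 16 transducers and destruction complex genes, 0 to 3 were higher and 1 to 6 lower (11.6% and 20.5%), with Csnk1d at 0.45 on day 7 (adjusted p = 2.57e-12) and Bcl9 at -0.32 on day 1 (adjusted p = 0.00521). On day 2, when 0 transducers were higher by limma, 1 was higher at an unadjusted p under 0.05.

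In whole lung, fewer cells of a type and less RNA per cell cannot be told apart, so markers of the cell types are given beside the genes, over all 7 days. RMA levels have no true 0, so that no marker can be called absent from them. Of 7 fibroblast markers, 3 were higher on day 2, 5 on each of days 7, 14 and 21, 2 on day 28 and 4 on day 35. From day 2 on 1 or 2 were lower, with Pdgfra at -0.72 on day 21 (adjusted p = 1.55e-08). On day 1, when Sfrp1 was higher, 0 fibroblast markers were called by limma in either direction, and 1 was lower at an unadjusted p under 0.05. On day 2 Frzb differed by 0.08 and Dkk2 by 0.46, and on day 7 Dkk2 differed by 0.32, without being called. The summed level of the list after taking the values out of the log scale was 29576 to 40583 in bleomycin mice and 18364 to 22104 in saline mice on day 14, with no overlap, and 17612 to 30721 and 16719 to 23789 on day 28, when the groups overlapped. In such a sum, here and below, the markers with the highest levels weigh most, so that it need not describe every marker. The part of fibroblast RNA in the changes of Frzb, Sfrp1 and Dkk2 was not tested.

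Several lists moved on the days on which Nkd1 and Axin2 were lower. Of 6 endothelial markers, 1 was lower on day 1, 6 on day 7, 5 on day 14, 6 on day 21, 5 on day 28 and 4 on day 35. Their summed level was 22197 to 28304 after bleomycin and 30955 to 34439 after saline on day 14, with no overlap. Of 5 alveolar type II markers, 2 were lower on days 1 and 2, 4 on day 7, 5 on day 14, and 1 on days 21 and 28. Their summed level on day 14 was 52349 to 61115 after bleomycin and 58317 to 63880 after saline. Of 6 alveolar type I markers, 1 was lower on day 1, 4 on day 2, 3 on day 7, 2 on day 14 and 1 on day 35. In the same list 1 was higher on day 7, 1 on day 14 and 2 on day 21, with Pdpn at 0.20 on day 7 (adjusted p = 1.34e-08). Of 5 leukocyte markers, 1 to 3 were higher on every day, with summed levels of 13401 to 18212 and 8692 to 11305 on day 14. The part of these cell types in the Nkd1 and Axin2 changes was not tested.

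The remaining lists are set beside Wif1, Sfrp2 and Dkk3. Of 5 airway epithelial markers, 4 were lower on day 1, 3 on day 2, 2 on day 7, 4 on day 14, and 1 on days 28 and 35. On day 21, 1 was higher, Foxj1 at 0.46 (adjusted p = 0.0213). Wif1 was called lower on days 1 and 7 but not on days 2 and 14. The summed level of the airway list was 57000 to 64726 after bleomycin and 64364 to 71634 after saline on day 1, and 49807 to 62124 and 64578 to 69365 on day 14, with no overlap on day 14. Of 5 mesothelial markers, 2 were lower on day 2, 3 on day 7 and 3 on day 14, and 1 was higher on day 7 and 1 on day 21. The median difference of the mesothelial list was -0.53 on day 14, when Sfrp2 differed by 0.33, and its summed level on day 21 was 4853 to 9725 after bleomycin and 4734 to 7136 after saline.

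Of 7 smooth muscle markers, all were lower on days 1, 21 and 28, 2 on days 7 and 35, and 2 were higher on day 2. Of 5 heart muscle markers, 1 was lower on day 7, 2 on days 14 and 21, 1 on day 28 and 3 on day 35. Dkk3 was lower on days 1 and 7 and higher on day 35. The summed level of the smooth muscle list on day 1 was 14231 to 22500 after bleomycin and 17272 to 33053 after saline, and that of the heart muscle list on day 35 was 4739 to 26258 and 8082 to 30377. Of 7 cartilage markers, 0 to 2 were higher and 0 lower by limma on each day, with up to 3 higher and 0 lower at an unadjusted p under 0.05. The part of these cell types was not tested.

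Mice of one group also differed among themselves, and the deviation of each mouse from the mean of its group was compared between genes over the 111 arrays, as a description without a test. These deviations share the array and its normalization. Frzb deviated most like Thbs2 (Pearson r 0.81, Spearman rho 0.65), a matricellular thrombospondin, then like Dkk2 (r 0.80, rho 0.62) and Thbs4 (r 0.79, rho 0.63). For Frzb and Dkk2, r was 0.87 among the 56 bleomycin mice, 0.41 among the 55 saline mice, and 0.74 over all mice without the 2 farthest. Dkk2 was in turn most like Thbs2 (r 0.81), Frzb (r 0.80) and Adamts12 (r 0.79). Sfrp1 was most like Sh3pxd2b (r 0.82), Pla1a (r 0.81) and Cstb (r 0.80).

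Nkd1 deviated most like Cyth3 (r 0.89, rho 0.86), Afap1l1 (r 0.88) and Slc9a3r2 (r 0.87), and Axin2 most like Hoxb5 (r 0.81), Plscr4 (r 0.80) and Stard13 (r 0.80). Against the mean of the 6 endothelial markers, Nkd1 had r 0.57 among saline mice and 0.79 among bleomycin mice, and Axin2 had 0.27 and 0.81. Among bleomycin mice the alveolar type I markers were nearly as high, with 0.74 for Nkd1 and 0.65 for Axin2 (0.47 and 0.13 among saline mice). The alveolar type II markers had 0.64 for both genes among bleomycin mice, and 0.08 for Nkd1 and 0.14 for Axin2 among saline mice. The leukocyte markers had -0.73 with Nkd1 and -0.68 with Axin2 among bleomycin mice.

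Against the mean of the 7 fibroblast markers, Frzb had r 0.42 among saline mice and 0.62 among bleomycin mice, Sfrp1 had 0.37 and 0.72, and Dkk2 had 0.36 and 0.67. The same 3 genes had -0.57 each with the endothelial markers among bleomycin mice. In these mice Frzb had 0.52 with the cartilage markers, and Sfrp1 had -0.61 with the alveolar type I markers. Among saline mice other lists were above the fibroblast list. Frzb had 0.59 with the cartilage and 0.45 with the heart muscle markers, and Dkk2 had 0.55 with the smooth muscle and 0.40 with the cartilage markers. Sfrp1 had 0.41 with the leukocyte and 0.38 with the mesothelial markers. The 3rd saline mouse of day 7 was the highest of its group for Frzb, Dkk2 and the cartilage and smooth muscle markers. The values among saline mice were not computed without it.

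The remaining genes had other nearest genes. Sfrp2 was most like the mesothelial marker Msln (r 0.74), Pcnx2 (r 0.70) and C2 (r 0.68), and had r 0.68 with the 5 mesothelial markers, beside -0.50 with the endothelial markers among bleomycin mice. Wif1 was most like Mgat3 (r 0.67), Tst (r 0.66) and the axonemal dynein gene Dnah9 (r 0.65), and had r 0.58 with the airway epithelial markers. Among saline mice Wif1 also had 0.56 with the smooth muscle and 0.54 with the cartilage markers. Over the 111 arrays the cartilage value was r 0.32 but rho -0.09, and r 0.07 without the 2 farthest mice. The 3rd saline mouse of day 7 was 1 of these 2. Dkk3 was most like Doc2g, Csdc2 and Mtus2 (r 0.68 each). It had r 0.52 with the heart muscle markers (0.70 among saline mice) and 0.43 with the smooth muscle markers (0.64 among saline mice). Sp5 was most like Tmem98 (r 0.63), Lpcat3 (r 0.63) and Ttf2 (r 0.62). Dkk1 had no gene above r 0.45, its nearest being 4930565N06Rik (r 0.45), Snph (r 0.41) and Ms4a10 (r 0.40).

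**Figure D5:**
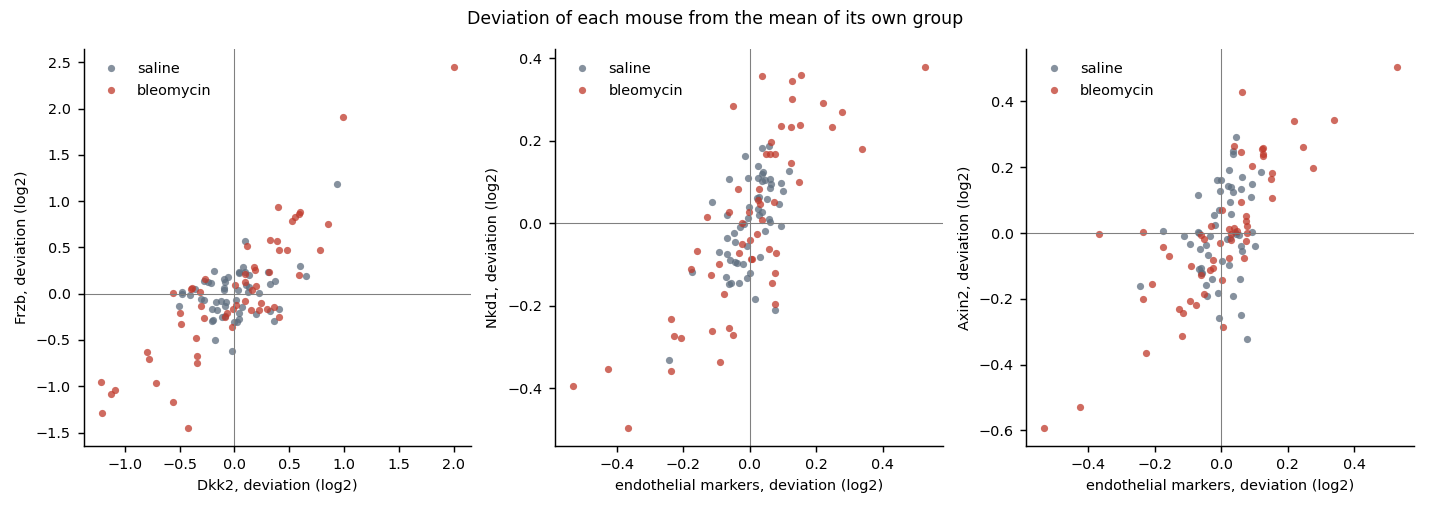
Deviation of each mouse from the mean of its own group (log2 on both axes), saline in grey and bleomycin in red, for Frzb against Dkk2 and for Nkd1 and Axin2 against the mean of the endothelial markers. The bleomycin mice spread along a rising line in each panel (r 0.87, 0.79 and 0.81), and the 3rd bleomycin mouse of day 35 is the farthest point of the first panel, at 2.44 for Frzb and 2.00 for Dkk2.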

How the data were processed

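Lung RNA of 111 mice was measured on genome-wide Affymetrix mouse arrays after amplification with NuGEN Ovation kits. The authors summarised the arrays by RMA (version and genome build not given in the sources used here) and deposited 32688 probesets as log2 levels, between 2.75 and 14.69. Here, 314 probesets of several genes and 4503 of no named gene were left out, with gene names from GEO's platform annotation. The most variable of a gene's probesets was kept. R 4.3.3 with limma 3.58.1 fitted 1 mean per group over all 14 groups (lmFit, eBayes), without covariates. Contrasts were bleomycin minus saline on each day, the differences of these responses between phases, and an F test over the saline groups, with Benjamini-Hochberg adjustment over 15707 genes and calls at 0.05. All probesets of the 10 genes were tested in the same way over 27871 probesets. No 2 arrays were identical. The number of arrays limits the precision. The labels tie no mice to a cage, litter or array batch, and p-values measure the spread between these mice.

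The 10 genes and all lists were chosen with earlier results of these data known. Named beyond the 10 genes are, for each pathway list, the largest called increase and decrease over the 7 days and, for each of the 10, the 3 genes with the highest correlation of residuals. The fits were tested on simulated data. Alternatives were the mean or the brightest probeset of a gene, leaving out the dimmest 30% of genes, repeated quantile normalization, array weights, 1 fit per day or comparison, ordinary contrasts without eBayes (nearest to the methods' analysis of variance), a replicate block, and leaving out 1 of 3 arrays, of which the saline array of day 7 and the bleomycin array of day 21 were chosen after seeing the data. Python 3.11.15 read the promoter letters. Protein sequences were not used here.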

Additional observations from a re-analysis of the deposited data

Results flagged for a closer look

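In 7 of 140 groups of 7 or 8 mice (10 genes in 14 groups), the highest or lowest mouse stood apart from the others by Dixon's 95% criterion, and chance alone gives about 1 such group in 20. On day 7 the same saline mouse, the 3rd, was the highest for Frzb (7.23) and Wif1 (8.07) and the lowest for Nkd1 (9.92), and it also stood apart in its cartilage, fibroblast, smooth muscle, endothelial and both alveolar marker lists. The others were the highest Frzb level among bleomycin mice of day 1 (6.54), the lowest Sfrp1 level among bleomycin mice of day 7 (8.14), the lowest Wif1 level among bleomycin mice of day 21 (5.59) and the highest Sp5 level among saline mice of day 14 (8.71). No cause was tested.

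The response to bleomycin differed between phases for several of the genes. Of all genes, 20.4% differed upward and 15.8% downward in the first contrast below, and 11.9% and 14.9% in the second. From days 1 and 2 to days 7 and 14 it differed by 1.87 for Frzb, 1.74 for Sfrp1, 0.62 for Sfrp2, 0.72 for Dkk2, 0.33 for Sp5 and -0.48 for Nkd1. From days 7 and 14 to days 21, 28 and 35 it differed by -0.89 for Frzb, -1.42 for Sfrp1, 0.25 for Dkk3 and 0.22 for Nkd1. Each of these passed the limma contrast of the difference itself. The late contrast of Nkd1 was lost in 4 of 11 alternatives, and the contrast of Sp5 in 3 of 11.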

How the results depend on the processing

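Under 11 alternatives, 26 of 33 calls of a gene on a day held in every alternative that gave a value, 34 of 43 with the contrasts between phases, and none changed direction. The replicate block changed no call and no count by over 1.5 times, with 3 genes higher and 4 lower on day 7. Replicate numbers were not shown to pair mice: the deviations of same-numbered mice over 55 pairs correlated between -0.33 and 0.41 (median 0.06), and 23 pairs exceeded 0.1. Without the dimmest 30% of genes, which removes Frzb, Wif1, Dkk1 and Dkk2, the set had 1 gene lower on day 1, 1 higher on day 14, 3 higher on day 21, 1 higher on day 28, and 3 higher and 0 lower on day 35, and between phases 3 higher and then 1 lower. With array weights there was 1 lower on day 1, 2 lower on day 2 and 2 lower on day 28. With 1 fit per day or comparison there were 1 lower on day 1, 2 higher and 1 lower on day 2, 1 lower on day 21, 2 lower on day 28, 3 higher and 2 lower on day 35, and 1 higher in late fibrosis against days 7 and 14. With the mean of all probesets 0 were higher on day 1, 1 was lower on day 21 and 1 higher in the late contrast, and the brightest probeset also gave 1 in the late contrast. Leaving out the 3rd saline mouse of day 7, the 3rd bleomycin mouse of day 35 or the 4th bleomycin mouse of day 21 gave between 0 and 1 lower on day 2 (1 without the first), between 3 and 5 higher on day 35 (3 without the second) and between 1 and 2 higher in the late contrast (1 without the third). Calls lost in 1 or more alternatives were Frzb and Dkk2 on day 35, Wif1 on days 1 and 7, Sfrp1 on day 1, Axin2 on day 21, Nkd1 on day 7, and the phase contrasts of Sp5 and, in late fibrosis, Nkd1. The counts without the dimmest 30% of genes lack the 4 genes removed by construction. Leaving out a mouse also lowered the difference itself, for Frzb on day 35 from 0.93 to 0.58, for Dkk2 on day 35 from 0.74 to 0.45 and for Wif1 on day 7 from -0.47 to -0.27. Otherwise the cause was not tested. No scaling moved the median of all genes by 0.1.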
